A study of Sus scrofa with 12 samples.

Results

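Messenger RNA levels of the mitochondrial ribosomal proteins were followed in the uterus of newborn pigs. The genes were the rows of the deposited expression table whose symbol begins with MRPL or MRPS and a digit, together with placeholder entries described as a mitochondrial ribosomal protein of the large or small subunit. This rule took 67 of 20390 rows, 9 by symbol and 58 by description, of which 41 belong by name to the large subunit and 26 to the small subunit. The study compared crossbred gilts (young female pigs of Landrace, Yorkshire, Duroc and Hampshire stock) in 3 groups of 4 uterine RNA libraries. PND2N gilts nursed for 48 h, PND2R gilts received a commercial milk replacer for 48 h, and their uteri were collected 50 h after birth. PND0 gilts had not nursed, and their uteri were collected within 1 h of birth. No litter, date or batch is named in the labels, nor that each library came from a separate animal, so the p-values measure the spread between these libraries. Replicate numbers below follow the order of the records and only name the libraries.

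Mitochondria keep their own ribosome, which makes the few proteins encoded by mitochondrial DNA, all of them core subunits of the oxidative phosphorylation complexes. Its RNA comes from the mitochondrial genome, whereas all of its proteins are encoded in the nucleus, made in the cytosol and imported. The large subunit joins the amino acids and holds the exit tunnel, the small subunit holds the messenger RNA and the decoding site. Some of these proteins descend from bacterial ribosomal proteins and others exist only in mitochondrial ribosomes. The glands, stroma and muscle layer of the pig uterus go on developing after birth.

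The values were normalized by the authors to a linear scale with 1 as the lowest value, and library totals lay between 26534074 and 29544130. No correction for gene length is stated in the sources used here, so levels are compared between groups and not between genes. Between 17.8% and 22.1% of the genes of a library stood at 1. All 8 uterine markers, among them the oestrogen receptor ESR1, were in the table. ESR1 averaged 5638 ± 1517 in PND2N, 4887 ± 977 in PND2R and 2207 ± 1066 in PND0 (SD, n = 4 each). It was the 1 marker of the 8 that rose against birth in either group, and none fell. The median log2 change of the 8 was -0.06 in PND2N and -0.02 in PND2R, and 3 and 4 of them had a positive change. The lowest was the progesterone receptor PGR, which did not pass the threshold, with 104 ± 75.5 in PND2N, 78.9 ± 47.3 in PND2R and 310.4 ± 67.6 in PND0. Libraries PND2N 1, PND2R 2 and PND2R 3 had the highest levels of smooth muscle markers, and PND0 3 and PND0 4 the lowest levels of epithelial markers. Results that rest on these libraries are therefore also given without them.

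The 67 rows stand for 59 proteins, 37 of the large and 22 of the small subunit, on 17 chromosomes. The proteins MRPL11, MRPL33, MRPL53, MRPS18A, MRPS21, MRPS31 and MRPS36 have several rows each, 15 in all. For a pair of proteins the name differs from the known human structure. MRPS18A carries a small subunit symbol but sits in the large subunit, and MRPS36 is a component of the 2-oxoglutarate dehydrogenase complex and not of the ribosome. A gene was tested if its value exceeded 1 in at least 4 of the 12 libraries. This held for 65 members, 40 of the large and 25 of the small subunit. The other two, LOC100525914, similar to MRPL33, and LOC100155825, similar to MRPS21, were at 1 in every library.

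Against birth, most of these genes had higher mean values on day 2 under either feeding, but few single genes passed the test in nursed gilts. In PND2N versus PND0, 6 of 65 members rose and 0 fell, while 1.91% of all 16862 genes tested rose and 1.41% fell (limma on log2(value + 1), Benjamini-Hochberg adjusted p under 0.05, two-sided). In PND2R versus PND0, 19 of 65 members rose and 0 fell, beside 7.7% and 7.31% of all genes. The 6 genes were 5 of the 40 large subunit members and 1 of the 25 small subunit members. The 19 genes were 11 large and 8 small subunit members. Both comparisons use the same 4 PND0 libraries, so they are not independent of each other. In whole tissue, a change in the proportion of a cell type and a change of RNA per cell cannot be told apart.

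Over all 65 members, those past the threshold included, most changes were positive. In PND2N versus PND0, 58 of 65 members had a positive log2 change, beside 47.5% of all genes, and 29 were higher at an unadjusted p under 0.05, beside 12.8%, while 2 were lower, beside 11.1%. The 4 PND2N values lay wholly above the 4 PND0 values for 20 members, beside 8.14% of all genes, and wholly below for 2, beside 7.88%. In PND2R versus PND0, 57 members had a positive log2 change, beside 47% of all genes, and 37 were higher at an unadjusted p under 0.05, beside 16.9%, while 2 were lower, beside 20.1%. The groups did not overlap for 30 members that were higher in PND2R, beside 12.7% of all genes, and for 2 that were lower, beside 15.6%.

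The subunits differed little in the size of these changes. In PND2N versus PND0 the median log2 change was 0.53 over the large subunit, 0.42 over the small subunit and -0.04 over all genes tested. In PND2R versus PND0 the medians were 0.65, 0.54 and -0.06 in the same order of sets. The quartiles of the large subunit were 0.34 and 0.78 in PND2N versus PND0 and 0.42 and 0.92 in PND2R versus PND0. Those of the small subunit were 0.23 and 0.62, and 0.15 and 0.79. Counting MRPS18A with the large subunit and leaving MRPS36 out gave small subunit medians of 0.44 and 0.61.

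**Figure D1:**
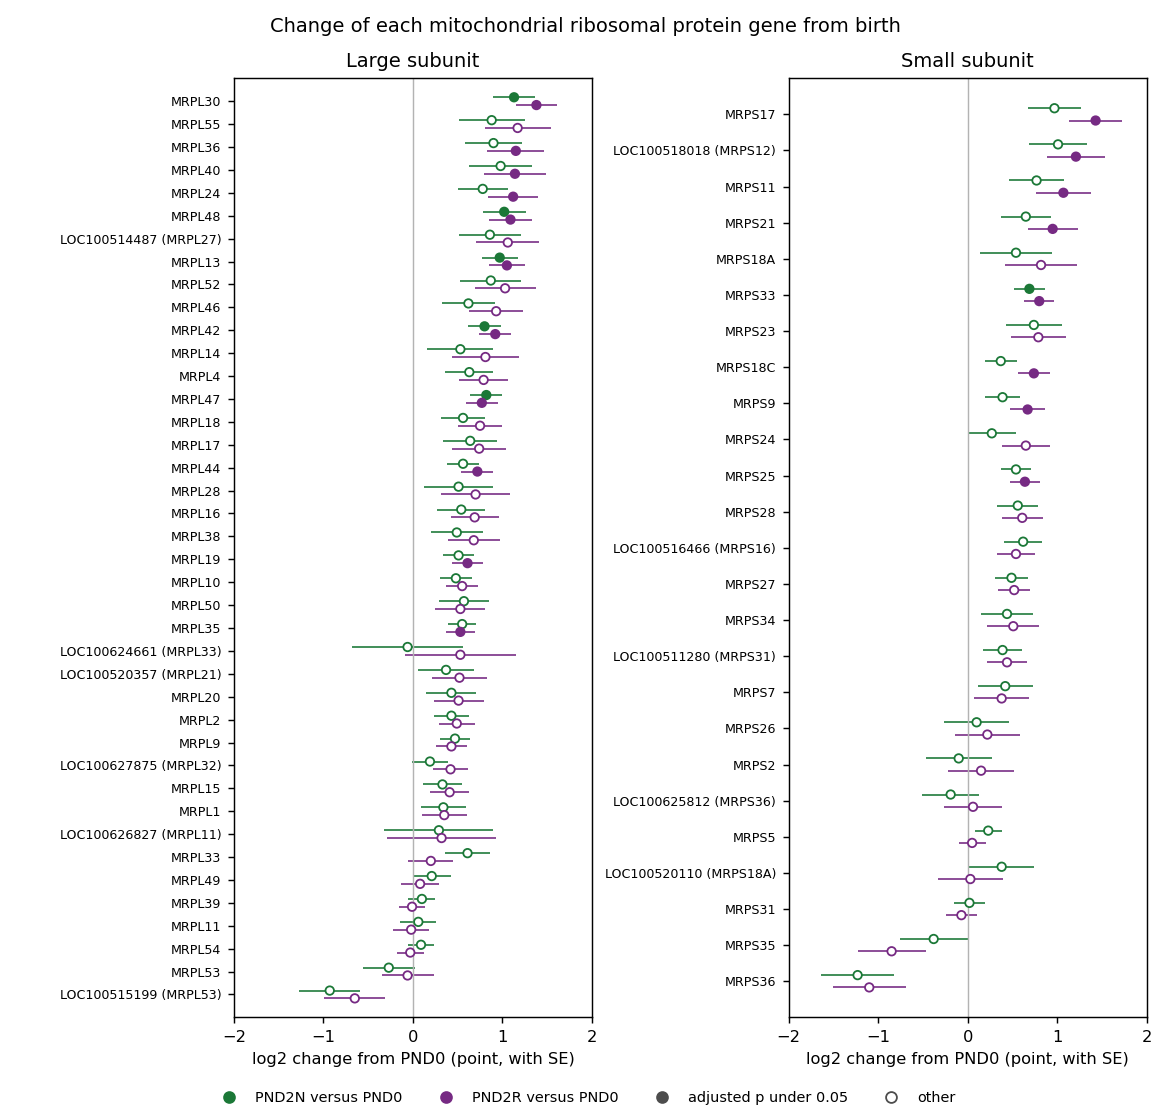
Change of each of the 65 tested genes from birth, on the log2(value + 1) scale, with the standard error; filled points passed an adjusted p of 0.05 and placeholder entries carry the protein named in their description. Filled points are 5 large and 1 small subunit genes for PND2N and 11 large and 8 small subunit genes for PND2R, and nearly all points lie right of 0.

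Of the large subunit, MRPL30, the homologue of bacterial L30 (chromosome 3, 57345623 to 57385253, Sscrofa10.2), had the largest change in either comparison. Its values were 2995, 2001, 1992 and 2937 in PND2N, 2387, 3246, 3467 and 2589 in PND2R, and 1344, 1448, 1038 and 758 in PND0. All day 2 libraries lay above all birth libraries. The log2 change was 1.13 ± 0.23 (SE) in PND2N versus PND0, a 2.19-fold difference (limma adjusted p = 0.0296), and 1.38 ± 0.23 in PND2R versus PND0, a 2.59-fold difference (limma adjusted p = 0.00783).

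MRPL13, the homologue of an early-binding protein of the bacterial large subunit (chromosome 4, 18957344 to 19019964), had values of 2353, 1608, 1673 and 2028 in PND2N, 1725, 2239, 2422 and 1706 in PND2R, and 1015, 1219, 972 and 724 in PND0. The groups again did not overlap. It was 1.96-fold higher in PND2N than in PND0 (log2 change 0.97 ± 0.20, limma adjusted p = 0.0294) and 2.07-fold higher in PND2R than in PND0 (1.05 ± 0.20, limma adjusted p = 0.0116). MRPL42 exists in mitochondrial ribosomes only (chromosome 5, 92615104 to 92634942), and its values were 601, 594, 632 and 666 in PND2N, 662, 748, 727 and 584 in PND2R, and 398, 401, 369 and 276 in PND0. Its spread within groups was small, with SDs of 33.0, 73.8 and 58.4. The log2 changes were 0.80 ± 0.18 in PND2N (limma adjusted p = 0.0363) and 0.92 ± 0.18 in PND2R (limma adjusted p = 0.0123).

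MRPL48, a protein of the central protuberance, the crest of the large subunit (chromosome 9, 8873645 to 8939475), had values of 1949.9, 1131, 1126 and 1619 in PND2N, 1201, 1817, 1832 and 1220.0 in PND2R, and 688, 925, 667 and 550.3 in PND0. The day 2 values fell into a higher and a lower pair in each feeding group, and the lower pairs still lay above every PND0 value. Its log2 change was 1.02 ± 0.24 in PND2N (limma adjusted p = 0.0443) and 1.09 ± 0.24 in PND2R (limma adjusted p = 0.0178). The annotation places LOC100514530 and PAAF1 over parts of the same interval, and the strand handling of the counting is not given in the sources used here, so reads of MRPL48 and of these genes may not be separable. MRPL47, the homologue of bacterial L29 near the mouth of the exit tunnel (chromosome 13, 124252492 to 124281308), had values of 1163, 1012, 1009.6 and 923 in PND2N, 946, 1035, 1013 and 949.7 in PND2R, and 668, 749, 451 and 496 in PND0. Unlike MRPL48 its day 2 values were close together. The log2 change was 0.82 ± 0.18 in PND2N (limma adjusted p = 0.0363) and 0.77 ± 0.18 in PND2R (limma adjusted p = 0.0222). The end of its interval overlaps that of ACTL6A.

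**Figure D2:**
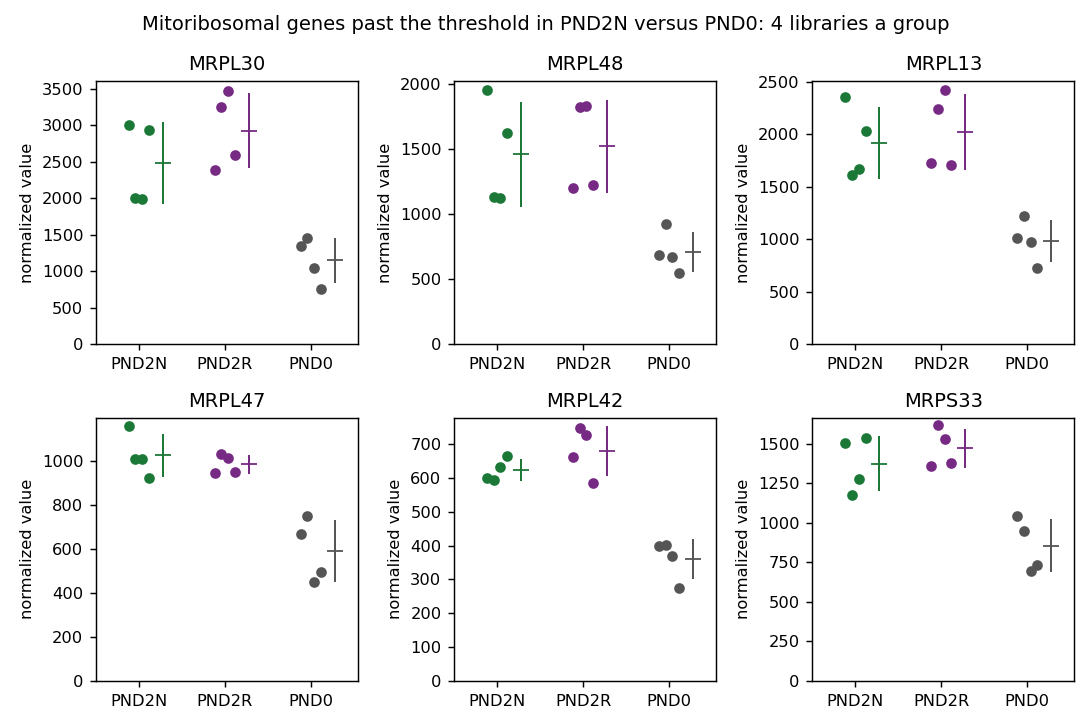
Normalized values (linear scale from 0) of the 6 genes that passed the threshold in PND2N versus PND0; points are libraries and the bar beside them is the mean with 1 SD (n = 4 a group). In each panel the 4 PND2N and the 4 PND2R libraries lie above the 4 PND0 libraries.

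Further large subunit genes passed the test in PND2R versus PND0. MRPL24, whose bacterial homologue starts assembly of the subunit, had values of 2363, 3953, 4468 and 2589 in PND2R, against 1786, 1781, 1293 and 1169 in PND0. It was 2.18-fold higher in PND2R than in PND0 (log2 change 1.12 ± 0.28, limma adjusted p = 0.0247), and its change in PND2N was 0.78 ± 0.28 (limma adjusted p = 0.128). MRPL44, a protein with a ribonuclease III-like fold, variants of which cause heart muscle disease in humans, had values of 1157, 1394, 1528 and 1151 in PND2R, against 819.9, 966, 617 and 781 in PND0. Its log2 change was 0.72 ± 0.18 (limma adjusted p = 0.0260), beside 0.56 ± 0.18 in PND2N (limma adjusted p = 0.105). MRPL36, which binds zinc, had values of 915, 1475, 1494 and 954 in PND2R, against 764, 793, 359 and 363 in PND0. PND0 3 and PND0 4 were far below the other PND0 libraries. The log2 change was 1.15 ± 0.32 (limma adjusted p = 0.0348), beside 0.90 ± 0.32 in PND2N (limma adjusted p = 0.124).

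MRPL40, another protein of the central protuberance, had values of 1617, 3183, 3515 and 1760.0 in PND2R, against 1204, 1481, 1018 and 747 in PND0, with a log2 change of 1.14 ± 0.35 (limma adjusted p = 0.0478). MRPL19, which lies at the interface with the small subunit, had values of 1084, 1073, 1330.2 and 1082 in PND2R, against 833, 870.1, 575 and 730.4 in PND0. The log2 change was 0.61 ± 0.17 (limma adjusted p = 0.0318). MRPL35 varied little within PND2R, with values of 699, 746, 747 and 731 in PND2R, against 516, 596, 522 and 412 in PND0. Its log2 change of 0.53 ± 0.16 was the smallest among the 19 members that rose in PND2R (limma adjusted p = 0.0472). In PND2N versus PND0 these 3 genes had log2 changes of 0.98 ± 0.35, 0.51 ± 0.17 and 0.55 ± 0.16, with limma adjusted p = 0.125, 0.102 and 0.0790.

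MRPL28, MRPL4 and MRPL17 carried the highest large subunit values, for which no length correction is stated, and did not pass the test. MRPL28 averaged 5257 ± 2767 in PND2N, 5671 ± 1912 in PND2R and 3557 ± 1411 in PND0 (SD, n = 4 each). Its single libraries overlapped widely, between 3012 and 9021 in PND2N, 3704 and 7973 in PND2R, and 2182 and 5019 in PND0. MRPL4, which lines the exit tunnel, averaged 4741 ± 1490.4 in PND2N, 5282 ± 1526 in PND2R and 3025 ± 731 in PND0. Its PND2R libraries all lay above its PND0 libraries, with a log2 change of 0.79 ± 0.27 (limma adjusted p = 0.0624). MRPL17, at the mouth of the tunnel, averaged 4778 ± 1705 in PND2N, 5052 ± 1451 in PND2R and 3032 ± 947 in PND0, and its log2 change was 0.74 ± 0.30 in PND2R (limma adjusted p = 0.0955). Large subunit genes with log2 changes near 0 were MRPL39, MRPL54 and MRPL11, at 0.10 ± 0.15, 0.09 ± 0.15 and 0.06 ± 0.20 in PND2N, and -0.01 ± 0.15, -0.03 ± 0.15 and -0.02 ± 0.20 in PND2R.

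Of the small subunit, MRPS17, the homologue of a protein that binds ribosomal RNA early in bacterial assembly (chromosome 3, 17345969 to 17350739), had the largest change in PND2R versus PND0. Its values were 1196, 642, 684 and 892 in PND2N, 891, 1425, 1319 and 1006 in PND2R, and 547, 603, 264 and 362 in PND0. Every day 2 value exceeded every birth value, although the lowest PND2N value of 642 stood close to the highest PND0 value of 603. It was 2.70-fold higher in PND2R than in PND0 (log2 change 1.43 ± 0.30, limma adjusted p = 0.0140), and its log2 change in PND2N was 0.97 ± 0.30 (limma adjusted p = 0.0849).

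MRPS33, a protein of the small subunit head found in mitochondrial ribosomes only (chromosome 18, 9342829 to 9353842), was the small subunit gene that passed the test in PND2N. Its values were 1503, 1177, 1275 and 1538 in PND2N, 1357, 1618, 1531 and 1381 in PND2R, and 1043, 946, 697 and 734 in PND0. The log2 change was 0.69 ± 0.17 in PND2N (limma adjusted p = 0.0476) and 0.80 ± 0.17 in PND2R (limma adjusted p = 0.0155). MRPS25, also specific to mitochondria, varied little at birth. It had values of 2653, 3620.2, 3456 and 2708 in PND2R, against 2023, 2059, 1887 and 1936 in PND0, with a log2 change of 0.64 ± 0.17 (limma adjusted p = 0.0287).

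The entry LOC100518018 is described as similar to MRPS12, the protein of the decoding site. Its values were 1713, 821, 927 and 903 in PND2N, 802, 1499.6, 1674 and 1011 in PND2R, and 597, 727, 459 and 355 in PND0. Its log2 change was 1.21 ± 0.32 in PND2R (limma adjusted p = 0.0278) and 1.01 ± 0.32 in PND2N (limma adjusted p = 0.0888). This entry lies inside the interval of SIRT2, whose own mean was 3071 ± 1006 in PND2R and 1714 ± 131 in PND0, and reads of the pair may not be separable. MRPS18C, the small subunit's own S18 protein, had values of 1327, 1537, 1650.4 and 1274 in PND2R, against 814, 908, 863 and 862 in PND0. Its log2 change was 0.74 ± 0.18 in PND2R (limma adjusted p = 0.0246) and 0.37 ± 0.18 in PND2N (limma adjusted p = 0.241). Its relative MRPS18A, of the large subunit, averaged 424 ± 194 in PND2N, 492 ± 151 in PND2R and 292 ± 132 in PND0, and no difference passed the test.

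MRPS11 and MRPS21 lie on the platform of the small subunit, and MRPS9 in its head, with a tail that reaches the transfer RNA. MRPS11 had values of 1885, 3450.2, 3729 and 2101 in PND2R, against 1434, 1481, 1243 and 991 in PND0, with a log2 change of 1.07 ± 0.31 (limma adjusted p = 0.0404). MRPS21 had 1547, 2544, 2954 and 1745 in PND2R, against 1278, 1219, 1006 and 919 in PND0, with a log2 change of 0.95 ± 0.28 (limma adjusted p = 0.0397). MRPS9 had 1708, 2702, 2491 and 1973 in PND2R, against 1429, 1402, 1555 and 1147 in PND0, with a log2 change of 0.67 ± 0.20 (limma adjusted p = 0.0449). In each of these genes PND2R 2 and PND2R 3 were the highest PND2R libraries. Their log2 changes in PND2N were 0.77 ± 0.31, 0.65 ± 0.28 and 0.39 ± 0.20, with limma adjusted p = 0.162, 0.177 and 0.255.

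MRPS28 and MRPS26, which with MRPS25 carried the highest small subunit values (no length correction is stated), did not pass the test. MRPS28 averaged 2877 ± 443 in PND2N, 2953 ± 202 in PND2R and 2030.0 ± 707 in PND0, and its log2 change in PND2R was 0.61 ± 0.23 (limma adjusted p = 0.0824). MRPS26 averaged 2708 ± 1183 in PND2N, 2824 ± 750.2 in PND2R and 2535 ± 1078 in PND0, with overlapping libraries.

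A few members had lower values on day 2, and none of them passed the test. The MRPS36 row, whose product is not part of the ribosome, had values of 26.4, 47.1, 43.8 and 52.6 in PND2N, 64.9, 31.3, 37.1 and 55.2 in PND2R, and 162, 143, 58.4 and 68.5 in PND0. The log2 changes were -1.23 ± 0.41 (limma adjusted p = 0.108) and -1.10 ± 0.41 (limma adjusted p = 0.0819). A second row for this protein, LOC100625812, had means of 366 ± 45.6 in PND2N, 442 ± 102 in PND2R and 453 ± 208 in PND0, with log2 changes of -0.19 ± 0.32 and 0.06 ± 0.32. MRPS35 had values of 175, 499, 622 and 337 in PND2N, 402, 191, 193 and 327 in PND2R, and 479, 482, 508 and 445 in PND0. It was lowest in PND2N 1, PND2R 2 and PND2R 3, the libraries in which most other members were highest, and its log2 changes were -0.38 ± 0.38 and -0.85 ± 0.38. LOC100515199, similar to MRPL53, had values between 20.5 and 43.5 in PND2N, 31.9 and 43.4 in PND2R, and 48.1 and 74.7 in PND0, so that both day 2 groups lay below birth without passing the test (-0.93 ± 0.34 and -0.65 ± 0.34).

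Rows that share a protein with another row behaved less uniformly than the rest. Among the 52 members that are the only row of their protein, the median log2 change was 0.54 in PND2N versus PND0 and 0.67 in PND2R versus PND0. Over the 13 tested rows of proteins with several rows it was 0.06 in either comparison. Reads can be split between near-identical copies, so values of these 13 rows are uncertain. The MRPL33 gene on chromosome 3, for instance, averaged 809 ± 114 in PND2N, 604 ± 27.5 in PND2R and 557 ± 213 in PND0, while the short MRPL33-like entry LOC100624661 lay between 1.30 and 6.37 in PND2N, 1.35 and 12.6 in PND2R, and 1.00 and 6.30 in PND0.

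By descent the changes were as follows. The 41 tested members with a bacterial homologue had median log2 changes of 0.53 in PND2N and 0.65 in PND2R, with 3 and 13 past the threshold. The 22 mitochondria-specific members had medians of 0.49 and 0.52, with 3 and 6 past the threshold. Over all genes, 1.91% rose past the threshold in PND2N and 7.7% in PND2R. No test of the difference between these classes was made.

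Between nursed and replacer-fed gilts no difference in these genes was detected. In PND2N versus PND2R, 0 of 65 members passed limma's adjusted threshold, and 0 had an unadjusted p under 0.05. Among all genes 0 were higher and 0.0119% lower at the adjusted threshold, and 1.53% and 1.15% at the unadjusted one. The median log2 change was -0.13 over the large subunit and -0.10 over the small subunit, beside 0.03 over all genes, and 15 of 65 members had a positive change, beside 54.5% of all genes. MRPL33 was the 1 member whose groups did not overlap, beside 1.39% of all genes that were higher without overlap. It had 754, 728, 778 and 977 in PND2N, against 564, 624, 608 and 618 in PND2R. Its log2 change was 0.41 ± 0.25 (limma adjusted p = 1). MRPS18C had 1504, 980.1, 847 and 1227 in PND2N, against 1327, 1537, 1650.4 and 1274 in PND2R. Its log2 change was -0.37 ± 0.18 (limma adjusted p = 1). Genes that passed the test against PND0 in one feeding group and not in the other are thus not shown to differ between them. Tested across all 3 groups at once (limma's F test), 7 members passed, 5 of the large and 2 of the small subunit, beside 6.43% of all genes.

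Libraries of 1 group differed widely. The average of the 12 libraries was subtracted from each gene, and the median over members was taken per library on the log2 scale. For the large subunit these medians were 0.55, -0.10, -0.10 and 0.28 in PND2N, -0.03, 0.48, 0.54 and 0.09 in PND2R, and -0.17, -0.05, -0.70 and -0.72 in PND0. For the small subunit they were 0.50, -0.18, -0.16 and 0.22 in PND2N, -0.04, 0.44, 0.51 and 0.07 in PND2R, and -0.11, -0.08, -0.64 and -0.53 in PND0. PND2N 2 and PND2N 3 thus lay close to PND0 1 and PND0 2. The highest medians were those of PND2N 1, PND2R 2 and PND2R 3, and the lowest those of PND0 3 and PND0 4. The subunits went together in every library, the large minus the small median being between -0.20, in PND0 4, and 0.07. This difference lay between 0.04 and 0.07 in PND2N, 0.01 and 0.03 in PND2R, and -0.20 and 0.03 in PND0. PND2N and PND0 thus did not overlap in it, while PND2R and PND0 did, and it was not tested.

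**Figure D3:**
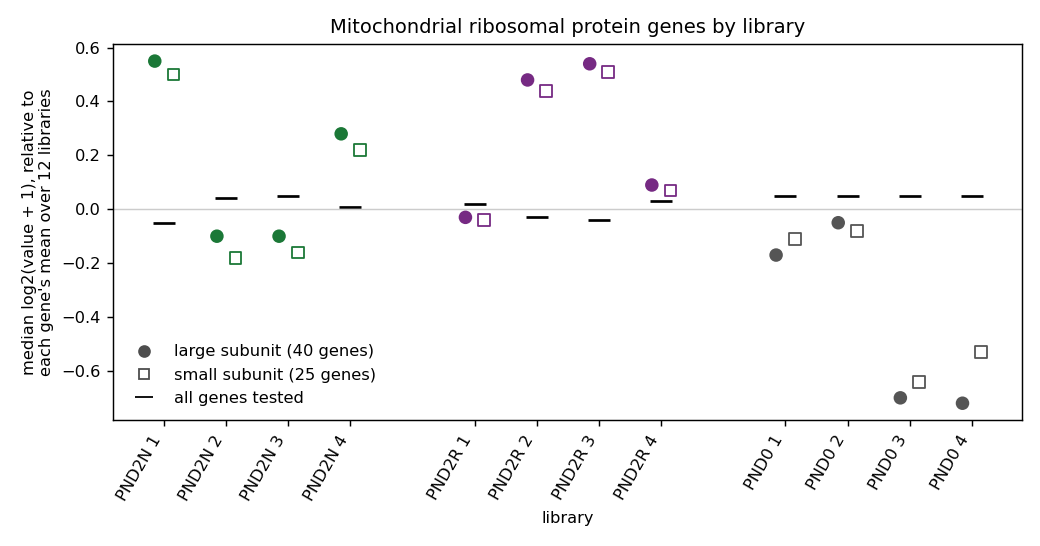
Median of the large subunit (filled circles) and small subunit (open squares) members in each library, on the log2(value + 1) scale after subtracting the gene's average of the 12 libraries; dashes mark the median of all genes tested. Circles and squares lie close together in each library, while the libraries of a group spread, for instance between -0.10 and 0.55 for the large subunit in PND2N.

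The summed level tells the same on the linear scale. Members made up 0.471%, 0.306%, 0.312% and 0.399% of the library total in PND2N, 0.334%, 0.451%, 0.470% and 0.359% in PND2R, and 0.310%, 0.321%, 0.220% and 0.212% in PND0. Group means were 0.372% ± 0.078 in PND2N, 0.403% ± 0.067 in PND2R and 0.266% ± 0.058 in PND0 (SD, n = 4 each), with the PND2N range reaching into that of PND0. The ratio of the large to the small subunit sum was 1.97 ± 0.07 in PND2N, 1.96 ± 0.05 in PND2R and 1.81 ± 0.08 in PND0. It lay between 1.87 and 2.03, 1.90 and 2.02, and 1.73 and 1.92 in the same groups, so the ranges overlapped.

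Markers of some cell types, but not of all, moved with these libraries. The smooth muscle list had a median of 1.03 in PND2N 1, 0.61 in PND2R 2 and 0.62 in PND2R 3, and between -0.76 and 0.36 in the other libraries. Its 6 measured genes of 8 summed to between 73247 and 226269 in PND2N, 105716 and 183131 in PND2R, and 87966 and 125549.7 in PND0. The epithelial list had a median of -1.17 in PND0 3 and -1.46 in PND0 4, and between -0.44 and 0.76 in the other libraries. Its 7 measured genes of 8 summed to between 47403 and 85625 in PND2N, 66213 and 84134 in PND2R, and 21469 and 98635 in PND0. The stromal list, 7 measured genes of 8, had a median of -0.57 in PND2N 1, -0.47 in PND2R 2 and -0.73 in PND2R 3, and between -0.07 and 0.59 in the other libraries. It summed to between 284811 and 547206 in PND2N, 246487 and 440614 in PND2R, and 346414 and 457734 in PND0. The endothelial list, 6 measured genes of 8, had its lowest medians in PND2R 2 and PND2R 3, at -0.52 and -0.56. It stood at -0.27 in both PND2R 1 and PND2R 4, and at -0.20 in PND2N 1. It summed to between 7987 and 12177 in PND2N, 6436 and 7054 in PND2R, and 8565 and 13825 in PND0, so the sums of PND2R and PND0 did not overlap. Against birth, the median log2 change of the stromal list was 0.06 in PND2N and -0.44 in PND2R with no gene past the threshold, and that of the endothelial list was -0.26 and -0.71. PECAM1, an adhesion molecule of endothelial cells, fell in PND2R (log2 change -0.77 ± 0.23, limma adjusted p = 0.0444), and no other endothelial marker passed in either comparison. No measured marker of these 4 lists stood at 1 throughout. The leukocyte list had medians of 0.24 in PND2N 1, 0.28 in PND2R 2 and -0.13 in PND2R 3, and between -0.51 and 0.37 elsewhere. In each comparison with birth 1 of its 7 measured genes rose (limma adjusted p = 0.0495 and 0.0446), beside 1.91% and 7.7% of all genes. The red blood cell list, 4 measured genes, had medians of 0.23, 0.46 and -0.18 in those libraries, and between -1.11 and 0.89 elsewhere. The part of these cell types in the changes of the mitoribosomal genes was not tested.

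**Figure D4:**
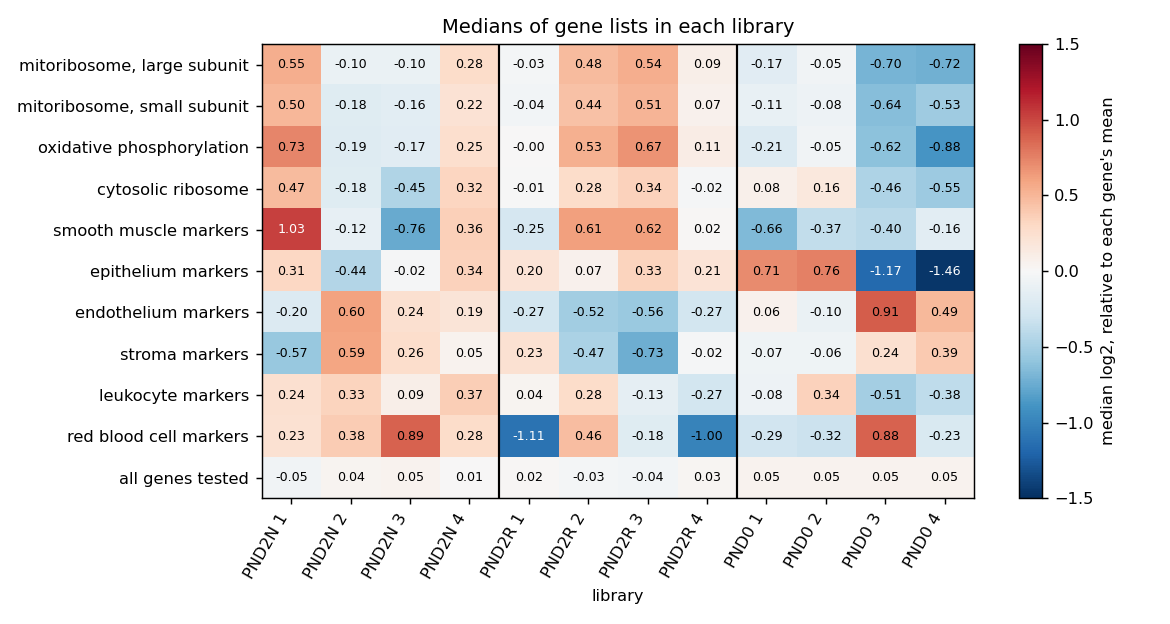
Median log2 level of gene lists (rows) in each of the 12 libraries (columns), relative to each gene's own mean; red is above and blue below that mean, and black lines part the groups. Mitoribosomal and oxidative phosphorylation genes are highest in PND2N 1, PND2R 2 and PND2R 3, as are smooth muscle markers, and lowest in PND0 3 and PND0 4, as are epithelial markers.

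Without PND2N 1, PND2R 2 and PND2R 3, no member passed the threshold in either comparison with birth (limma, smallest adjusted p = 0.0563 in PND2N and 0.0675 in PND2R), beside 0.741% and 0.64% of all genes that rose. At an unadjusted p under 0.05 there were 23 and 21 members in either direction, beside 22.4% and 21.4% of all genes. The median log2 change was then 0.44 over the large and 0.28 over the small subunit in PND2N versus PND0, and 0.46 and 0.42 in PND2R versus PND0. A positive change remained in 56 of 65 and 53 of 65 members, beside 48.3% and 47.3% of all genes. In PND2N versus PND2R a positive change was then found in 29 of 65 members, beside 51.2%. Without PND0 3 and PND0 4, 0 members rose in PND2N and 3 in PND2R, beside 1.57% and 4.15% of all genes, and 13 and 20 had an unadjusted limma p under 0.05 in either direction, beside 21.4% and 28.3% of all genes. These 3 were MRPL30, MRPL13 and MRPL42, with log2 changes of 1.05, 0.84 and 0.76. MRPS36 fell in either comparison there, by 1.86 and 1.73 on the log2 scale (limma adjusted p = 0.0489 and 0.0398), beside 1.1% and 3% of all genes that fell. PND0 3 and PND0 4 held its lowest birth values, 58.4 and 68.5, so leaving them out widened its fall by construction. The list medians were then 0.28 and 0.40 over the large subunit and 0.21 and 0.23 over the small subunit. PND2N 1, PND2R 2 and PND2R 3 had the highest member medians of the day 2 libraries, and PND0 3 and PND0 4 the lowest at birth. Leaving out either set therefore narrows the median rise from birth by construction.

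Single libraries also decided the number of calls. Of 6 genes past the threshold in PND2N versus PND0, 0 were left without PND2N 1, PND2N 2, PND2N 4, PND0 3 or PND0 4, 1 without PND0 1 or PND2R 4, and 2 without PND2R 1, PND2R 2 or PND2R 3. In PND2R versus PND0, with 19 members past the threshold over all libraries, the count was 3 without PND2R 2, 4 without PND2R 3, 5 without PND0 4, 8 without PND0 3, 12 without PND0 1 and 29, the 19 among them, without PND2N 1. The PND2R calls of MRPL30, MRPL13 and MRPL42 held in each of the 12 fits that left out 1 library, with log2 changes of at least 1.19, 0.91 and 0.80. No PND2N call held in all of them. The share of all genes passing in these fits is not given here, so a loss particular to these genes is not shown.

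Some genes of the mitoribosome carry other names or descriptions and fell outside the rule. Of 7 such subunits with unrelated names, 5 were in the table, with a median log2 change of 0.55 in PND2N and 0.73 in PND2R. DAP3, a small subunit protein that binds GTP, averaged 2261 ± 172 in PND2N, 2435 ± 156 in PND2R and 1673 ± 179.6 in PND0. It rose by 0.55 ± 0.13 on the log2 scale in PND2R (limma adjusted p = 0.0209), beside 0.44 ± 0.13 in PND2N (limma adjusted p = 0.0754). PTCD3, another small subunit protein, averaged 5495 ± 654 in PND2N, 5662 ± 337 in PND2R and 4115 ± 147 in PND0, and rose in PND2R (log2 change 0.46 ± 0.12, limma adjusted p = 0.0256). Of the rows outside the rule that the RefSeq gene table names as MRPL or MRPS, the MRPL32 entry LOC396626 rose in PND2R (0.54 ± 0.15, limma adjusted p = 0.0380), and MRPL3, MRPL43, MRPL58 and MRPS22 did not pass. With these 5 rows added, 6 genes passed in PND2N and 20 in PND2R. The MRPL58 row, also called ICT1, is the same row as 1 of the 5 subunits with unrelated names. The member LOC100627875 is also described as an MRPL32 protein, with a log2 change of 0.42 ± 0.20 in PND2R (limma adjusted p = 0.141).

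Genes that build the mitoribosome were less uniform. Of 18 measured assembly and RNA modification factors out of 26, 1 rose in PND2N and 5 in PND2R, beside 1.91% and 7.7% of all genes. No factor fell, beside 1.41% and 7.31% of all genes, and the median log2 change was 0.32 and 0.35. GTPBP10, a GTPase of large subunit assembly, had values of 1473, 954, 969.9 and 1273 in PND2N, 1299, 1489, 1615 and 1328 in PND2R, and 638, 667, 509.9 and 504 in PND0. Its log2 change of 1.00 ± 0.18 in PND2N (limma adjusted p = 0.0237) and 1.31 ± 0.18 in PND2R (limma adjusted p = 0.00465) came close to that of MRPL30. FASTKD2, which binds the large subunit's ribosomal RNA, rose in PND2R (0.76 ± 0.17, limma adjusted p = 0.0190), as did TFB1M, the methyltransferase of the small subunit's ribosomal RNA (1.21 ± 0.34, limma adjusted p = 0.0349).

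Of 12 tested translation factors out of 17, 1 rose in PND2N and 2 in PND2R, beside 1.91% and 7.7% of all genes. Their median log2 changes were 0.22 and 0.41. LRPPRC, which stabilizes mitochondrial messenger RNA, averaged 2027 ± 109 in PND2N, 2040.3 ± 143 in PND2R and 1226 ± 127 in PND0, with log2 changes of 0.73 ± 0.13 (limma adjusted p = 0.0202) and 0.74 ± 0.13 (limma adjusted p = 0.00796). MRRF, which recycles the ribosome after a protein is finished, rose in PND2R (1.16 ± 0.26, limma adjusted p = 0.0194). None of 10 measured mitochondrial aminoacyl-tRNA synthetases, which load transfer RNA, passed in either comparison at the adjusted level, with 0 in PND2N and 2 in PND2R, 1 higher and 1 lower, at an unadjusted p under 0.05, and medians of -0.14 and 0.01. Of 9 measured regulators of mitochondrial gene expression out of 18, 0 rose and 1 fell in either comparison, beside 1.41% and 7.31% of all genes that fell. Their median log2 changes were -0.06 and -0.15, and 4 of the 9 had a positive change in either comparison. The 1 that fell was PPARGC1B, a coactivator of mitochondrial genes, with means of 107 ± 44.8 in PND2N, 90.6 ± 35.8 in PND2R and 347 ± 154 in PND0. Its log2 changes were -1.69 ± 0.40 (limma adjusted p = 0.0452) and -1.93 ± 0.40 (limma adjusted p = 0.0145). None of the 13 proteins encoded by mitochondrial DNA was among the table's entries, so the products of the mitoribosome were not analysed here.

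The nuclear-encoded oxidative phosphorylation subunits, which assemble with those products, had changes of like size. Of 55 tested, 5 rose in PND2N and 20 in PND2R, beside 1.91% and 7.7% of all genes. No subunit fell, beside 1.41% and 7.31% of all genes, and the median log2 change was 0.54 and 0.74. NDUFS4, a subunit of complex I, averaged 1264 ± 515 in PND2N, 1530.3 ± 359 in PND2R and 442 ± 52.7 in PND0 (log2 change 1.43 ± 0.28, limma adjusted p = 0.0269, and 1.77 ± 0.28, limma adjusted p = 0.00696). Cytosolic ribosomal proteins had smaller medians, 0.20 in PND2N and 0.29 in PND2R over 60 tested genes, of which 0 rose in PND2N and 1, RPL26L1, in PND2R. At an unadjusted p under 0.05, 5 of the 60 were higher in PND2N and 15 in PND2R, beside 12.8% and 16.9% of all genes. Without PND0 3 and PND0 4 the medians of the cytosolic list were -0.10 and -0.01, and those of the oxidative phosphorylation list 0.25 and 0.42.

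**Figure D5:**
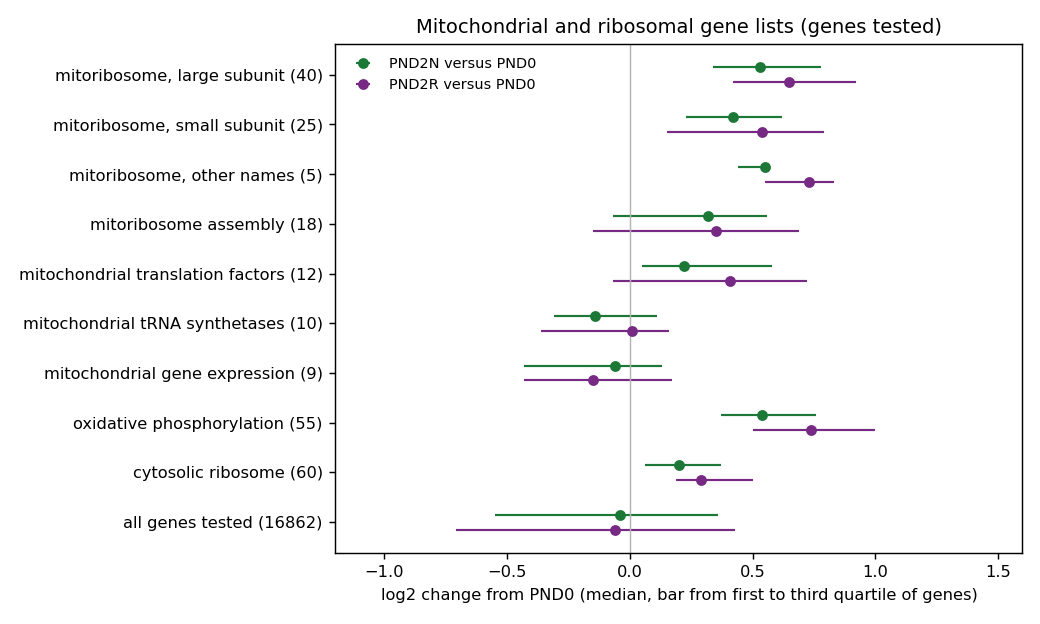
Median log2 change from birth of gene lists, with bars between the lower and upper quartile of genes; numbers in brackets are genes tested. Both mitoribosomal subunits and the oxidative phosphorylation subunits have medians between 0.42 and 0.74, against -0.04 and -0.06 for all genes.

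Many mitoribosomal genes stand head to head with another gene. In the positions of the table (build Sscrofa10.2), 17 of the 67 members, 25.4%, have a gene on the other strand that starts within 1000 bases and runs away from them, beside 6.18% of all genes. In 1 such pair both genes are mitoribosomal. MRPS11 (chromosome 1, 199873712 to 199885106) and MRPL46 (199885164 to 199894467) stand 57 bases apart. MRPL46, a protein of the central protuberance, had values of 1219, 1882, 2117 and 1285 in PND2R, against 1026, 1069, 671 and 648 in PND0, and its log2 change of 0.93 ± 0.30 missed the threshold (limma adjusted p = 0.0536), beside 1.07 ± 0.31 for MRPS11.

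Partners of other members did not always share their change. MRPL47 lies 49 bases from NDUFB5, a subunit of complex I, which averaged 2576 ± 199.9 in PND2N, 2614 ± 151 in PND2R and 1745 ± 356 in PND0, and which rose in PND2R (0.60 ± 0.15, limma adjusted p = 0.0256). MRPL30 lies 102 bases from MITD1, which acts in cell division, with means of 478 ± 79.3 in PND2N, 568 ± 84.8 in PND2R and 323 ± 38.7 in PND0 and a rise in PND2R (0.81 ± 0.20, limma adjusted p = 0.0236). MRPL13, in contrast, lies 331 bases from MTBP, whose values ran between 284 and 903 in PND2N, 229 and 645 in PND2R, and 215 and 483 in PND0, with log2 changes of 0.52 ± 0.43 and 0.40 ± 0.43. MRPL14 had a log2 change of 0.53 ± 0.37 in PND2N and passed no test. Its partner TMEM63B, 126 bases away, fell by 0.55 on the log2 scale (SE 0.13, limma adjusted p = 0.0425), and by 0.56 in PND2R (limma adjusted p = 0.0184). Also in PND2R, the partners HELQ of MRPS18C, PTCD2 of MRPS27 and LRRC46 of MRPL10 rose (0.57, 1.07 and 1.41, limma adjusted p = 0.0368, 0.0160 and 0.0470). EME2, the partner of MRPS34, fell there (-2.84, limma adjusted p = 0.0245). Besides the genes named here and MRPS11, no partner passed the test against birth. In all, 11 members overlap another gene, and for these, as for MRPL48, the counting may not have kept the pair apart.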

How the data were processed

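The deposited table gave 1 signal per gene and library, a linear value normalized by the authors, with 1 as its lowest. Per the submitters' processing notes bcl2fastq was used and Sscrofa10.2 was the genome build; how reads were aligned, counted and normalized is not given in the sources used here. Low values lay on steps of 1 size per library, but 29.1% to 35.2% of those up to 20 steps were whole multiples (within 0.02 steps), so no count test was used. Totals equal 11348572 to 22749682 steps, a rough depth, and no counting interval was computed.

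Members were found from the symbol and description of each row. Of 67 members, 54 matched a symbol in the RefSeq gene table, used for names only because its assembly differs. Members and gene lists were chosen with earlier results of these data known. Values were taken as log2(value + 1), and 16862 genes above 1 in at least 4 libraries entered 1 limma fit (3.58.1, R 4.3.3, statmod 1.5.0) over 12 libraries, with trended, robust empirical Bayes and Benjamini-Hochberg adjustment over all genes. On simulated data (PND2N versus PND0, 16862 genes, 200 of them changed), 15.5% of genes changed by 1 on the log2 scale and 63% of those changed by 2 were recovered. Of the genes called there, 8.82% and 8.7% had not been changed. PND2R versus PND0 was not simulated, and genes were drawn independently of each other. Fold changes on this scale understate changes of low genes. No p was computed for a list. Figures were drawn with matplotlib 3.10.9 and tables made with pandas 2.3.3 (Python 3.11.15, numpy 2.4.6).

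Members named are those past the threshold, the 4 of each subunit with the smallest unadjusted p in a contrast, the 3 highest and 3 lowest of each subunit by mean, MRPS36 and the MRPS18 paralogues; from other lists, up to 3 past the threshold. MRPS24 and LOC100626827, similar to MRPL11, also met this rule and passed no test. Their log2 changes from birth were 0.27 ± 0.27 and 0.29 ± 0.61 in PND2N, and 0.65 ± 0.27 and 0.32 ± 0.61 in PND2R. Others were named after their values were seen: MRPL39, MRPL54, MRPL11, MRPL46, MRPL14, MRPL10, MRPS27, MRPS34, MRPS35, the second rows of a protein, the rows outside the rule and the neighbouring genes. An entry listed as SLC5A3, whose identifier the gene table gives to MRPS6, was left out as ambiguous. As alternatives, 0.1 or 5 was added before the logarithm, the filter was dropped or set at 10, and these were tried: TMM scaling (written from its definition, trims of 0.3 and 0.05), quantile normalization, only the groups compared, plain empirical Bayes, subunits by structure, leaving out each library, and leaving out the 3 libraries with high muscle markers. Chosen after seeing the data were 1 row per protein, the 5 rows outside the rule, and leaving out PND0 3 and PND0 4. The 3 libraries with high muscle markers were likewise picked by values of these same data.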

Additional observations from a re-analysis of the deposited data

Results flagged for a closer look

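In 5 of 111 groups of 4 libraries (4.50%) the highest or lowest library stood apart from the others by Dixon's 95% criterion, and chance gives about 1 in 20. MRPL19 had 1330.2 in PND2R 3, while the other PND2R libraries lay between 1073 and 1084. LOC100518018, similar to MRPS12, had 1713 in PND2N 1, above 821 to 927 in the other PND2N libraries. LOC100627875, an MRPL32 entry, had 735 in PND2N 1, below 963 to 1000.3 in the others. LOC100520110, similar to MRPS18A, had 2.20 in PND2R 3 and 1.96 in PND0 4, the other libraries of either group being at 1.00, the lowest value of the table.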

How the results depend on the processing

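In PND2N versus PND0, with 6 members past the threshold, the count was 0 when a fit held just the libraries being compared, 0 without PND2N 1, PND2R 2 and PND2R 3, and 1 without PND0 3 and PND0 4 (MRPS36, lower and not among the 6); leaving out 1 library gave counts of 0 to 5. In PND2R versus PND0, with 19 past it, the count was 0 without the 3 libraries and 4 without PND0 3 and PND0 4 (3 of the 19, and MRPS36, lower); leaving out 1 library gave counts of 3 to 29, with 3 to 19 of the 19 kept. The F test's 7 members became 0 without the 3 libraries, 0 without PND0 3 and PND0 4, and 0 to 12 when 1 library was left out. Shares of all genes in these alternative fits are given above only for the comparisons with birth without either set of libraries. Without PND0 3 and PND0 4 the median log2 change of the small subunit in PND2R went from 0.54 to 0.23, a move about as large as the spread of library medians (SD 0.30). In PND2N it went from 0.42 to 0.21. The median of the large subunit went from 0.53 to 0.28 in PND2N and from 0.65 to 0.40 in PND2R (SD 0.32), moves smaller than that spread. The cause of these differences was not tested, though each such fit has fewer libraries. The 3 libraries had the highest member medians, and PND0 3 and PND0 4 the lowest. Scaling by TMM or by quantiles, the added value and the filter kept each of these counts within 1.5 times, and no log2 change of a called gene turned its sign under any alternative run. No paired analysis was possible because the replicate numbers follow the order of the records and pair no animals. In the simulation of PND2N versus PND0, with 4 libraries a group, 15.5% of changes of 1 on the log2 scale were recovered. That share is over genes of the whole table, drawn independently of each other, and is not the share for the mitoribosomal genes. Genes that did not pass are thus not shown to be unchanged.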
